A study of Mus musculus with 4 samples.

Results

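Mt1 and Mt2, the metallothionein genes expressed in many mouse tissues, are described here across blood-forming cells of 4 single-cell libraries. They are 2 of the 32285 genes in the files. They were chosen by symbol after their levels in these libraries had been seen, so their levels and ratios are descriptions and were not tested. Cells were chosen by UMI counts (unique molecular identifiers, each marking 1 captured transcript) of a lineage gene. The gates were Hlf at 1 or more (stem and early progenitor cells), Elane at 10 or more (neutrophil precursors), Car1 at 10 or more (erythroid precursors), Pf4 at 3 or more (megakaryocyte-type precursors) and Cd79a at 3 or more (B-lineage cells). A cell could pass several gates.

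The libraries held mouse bone marrow cells taken 10 weeks after transplantation and sorted for CD45.2, an antigen that separates donor from host blood cells. Each of 4 groups had 1 library. From control marrow, Kit+ cells and B220lo cells were sorted separately, and Kit+ cells were also sorted from Mll3/4 deleted and from Mll3/4SI marrow. Kit is the stem cell factor receptor of immature blood cells, and low B220 is found on B-lineage cells and plasmacytoid dendritic cells. MLL3 and MLL4 are histone methyltransferases that act at enhancers. The labels do not expand SI, do not name the alleles, the strain or the age of the donors, do not say whether a Cre line was used, and do not give the number of mice per library. With 1 library per group there is no replicate check, and the intervals given below are exact 95% intervals that cover counting error only.

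After filtering, 11051 control Kit+, 13747 deleted, 11501 SI and 15382 B220lo cells were kept, with median depths between 3246 and 11969 UMIs per cell. Pairs of libraries shared between 178 and 292 cell barcodes, at most 2.14% of the smaller library. Y-linked transcripts (Ddx3y, Eif2s3y, Kdm5d and Uty) stood at 149 CPM (UMIs of a gene per 1000000 UMIs of the same cells) over all deleted-library barcodes and between 0.0244 and 0.515 CPM in the other libraries. The sex of the cells and the genotype therefore cannot be told apart in any comparison with the deleted library. The Elane and Car1 gates, and the Cd79a gates of the deleted and B220lo libraries, were led by their lineage markers. The Hlf and Pf4 gates were mixed, as were the few Cd79a-gate cells of the control and SI Kit+ libraries, where neutrophil markers summed to more than B-lineage markers (11614 against 5655 CPM and 5094 against 4427 CPM). The summed level of 6 neutrophil markers was between 40778 and 49382 CPM in the Elane gates, that of 6 erythroid markers between 5677 and 6158 CPM in the Car1 gates, and that of 7 B-lineage markers was 11507 CPM in the Cd79a gate of the deleted library and 10206 CPM in that of the B220lo library. In the control Kit+ Hlf gate 7 stem markers summed to 490.1 CPM and neutrophil markers to 17035 CPM, and the latter reached 23206 CPM for the deleted and 13067 CPM for the SI Hlf gate. In the Pf4 gate 6 megakaryocyte markers summed to 3440.1, 1919.7 and 1665 CPM for control Kit+, deleted and SI cells, and neutrophil markers to 4864, 131 and 2222 CPM in the same order. The part of this makeup in the results below was not tested.

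Metallothioneins are small cysteine-rich proteins that bind zinc and copper and buffer the free metal in the cell. Their genes are switched on by the zinc-sensing factor MTF1, which binds metal response elements in their promoters, and are also induced by glucocorticoids, inflammatory cytokines and oxidative stress. In blood-forming tissue they are known from erythroid precursors, which handle large amounts of metal while making heme.

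Mt1 (ENSMUSG00000031765) lies at chr8:94179082-94180327 and Mt2 (ENSMUSG00000031762) at chr8:94172664-94173568 on the plus strand of GRCm38 in GENCODE M21, with the related genes Mt3 and Mt4 upstream on the same strand. The 250 bases before the RefSeq start of each member are shown because the metal response element is the best known regulatory sequence of the family. Capitals mark matches to its core, searched as TGCACNC and TGCGCNC on both strands. The windows are chr8:94178839-94179088 for Mt1 and chr8:94172368-94172617 for Mt2 in GRCm38.p6, plus strand, from RefSeq.

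Mt1: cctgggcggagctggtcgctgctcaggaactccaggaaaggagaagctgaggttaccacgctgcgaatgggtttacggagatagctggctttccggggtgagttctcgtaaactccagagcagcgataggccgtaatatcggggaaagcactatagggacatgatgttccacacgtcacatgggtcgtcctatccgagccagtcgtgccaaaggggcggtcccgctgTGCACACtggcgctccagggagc

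Mt2: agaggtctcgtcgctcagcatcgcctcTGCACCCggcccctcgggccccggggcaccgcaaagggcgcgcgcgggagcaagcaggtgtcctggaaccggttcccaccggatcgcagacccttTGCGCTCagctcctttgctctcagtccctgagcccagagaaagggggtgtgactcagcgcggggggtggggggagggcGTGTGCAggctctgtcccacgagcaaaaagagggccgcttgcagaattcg

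The Mt1 stretch held 1 match, with its first base at -23 from the start, and the Mt2 stretch held 3. With the first 50 bases after the start included, a window of 300 bases held 3 separate matches for Mt1 and 4 for Mt2. Of 32851 RefSeq promoter windows of that length, 1.31% held at least 3 and 0.295% at least 4. Mt3 and Mt4 had 1 match each in their windows, where 25.7% of all windows had at least 1. GENCODE lists other Mt1 transcripts that start further downstream, at 94179211 and 94179241, and its first Mt2 transcript starts at 94172664, beyond the end of the printed window, with another at 94172860. The sequence just before those starts is therefore not all shown, and the counts of matches hold for the RefSeq starts. A match is a string of letters and no evidence of binding. The longest identical run between GENCODE transcripts was 20 bases for Mt1 and Mt2 and 27 bases for Mt1 and Mt3.

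In the control Kit+ library Mt1 was highest in erythroid precursors. It stood at 834 CPM of the summed UMIs (95% interval 825 to 842) in 2288 Car1-gate cells. In 4223 Elane-gate cells it was at 289.6 CPM (285 to 294), in 2493 Hlf-gate cells at 193 CPM (188 to 198) and in 590 Pf4-gate cells at 163 CPM (153 to 172). None of these 4 intervals overlapped another, but they cover counting error only and the gates share cells. Of 5647 Mt1 UMIs in the Hlf gate, 3043 were in cells also past the Elane gate. Cells also past the Car1 gate held 2048 of them. In control cells of 1 gate only, given below, Mt1 was lower in the Hlf than in the Pf4 gate. The 47 control Kit+ cells past the Cd79a gate were at 263 CPM (209.7 to 326), an interval that overlapped that of the Elane gate. Neutrophil markers summed to 11614 CPM in these 47 cells, so they were not a clean B-lineage group. Of their 83 Mt1 UMIs, 43 were in 3 cells that also passed the Car1 gate. The 5 cells also past the Elane gate held 36.

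Mt2 followed another order in the gates taken whole. It was also highest in the control Kit+ Car1 gate, at 195 CPM (191 to 199), but it was at 16.5 CPM (15.0 to 18.02) in the Hlf gate, 14.1 CPM (11.4 to 17.1) in the Pf4 gate and only 3.30 CPM (2.86 to 3.78) in the Elane gate. Of the 483 Mt2 UMIs in the Hlf gate, 424 were in 152 cells that also passed the Car1 gate. In the Pf4 gate this held for 64 of 99 UMIs, in 29 cells. The Mt2 of the Hlf and Pf4 gates, which enters the ratios below, thus came largely from shared cells. UMI counts of a 5′ method do not scale with transcript length, so the members can be set side by side. The control Kit+ library held 4.28 Mt1 UMIs for each Mt2 UMI in the Car1 gate, 11.7 in the Hlf gate, 11.6 in the Pf4 gate and 87.9 in the Elane gate. Neutrophil precursors thus held Mt1 with little Mt2, while erythroid precursors held both. The level in neutrophil precursors depended on the removal of doublets: with these kept, Mt2 was at 15.4 CPM and Mt1 at 318 CPM in the control Elane gate.

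The B220lo library held few cells of the stem and myeloid gates. Mt1 was at 80.8 CPM (60.7 to 105) in its 58 Hlf-gate cells, 213 CPM (192 to 235) in 102 Elane-gate cells and 704 CPM (639 to 775) in 17 Car1-gate cells, the same order as in the control Kit+ library. Mt2 had 0 UMIs in the Hlf gate, where 3 UMIs would be 4.49 CPM, and was at 3.21 CPM in the Elane and 177 CPM in the Car1 gate. Its 5 Pf4-gate cells held 3 Mt1 UMIs.

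The share of cells with a UMI also put the Car1 gate first and the Elane gate after it, but placed the Pf4 gate above the Hlf gate at full depth. In control Kit+ cells an Mt1 UMI was found in 92.5% of the Car1 gate (median depth 17161.5 UMIs), 83.9% of the Elane gate (14418), 54.9% of the Pf4 gate (10262.5) and 46.5% of the Hlf gate (10314). After thinning each cell to 2000 UMIs, which left out 6 to 24 shallower cells per gate, these shares were 67.5% (exact binomial 95% interval 65.5 to 69.4), 38.9% (37.4 to 40.4), 18.8% (15.7 to 22.2) and 19.5% (17.9 to 21.1). An Mt2 UMI was found in 64.6% of Car1-gate cells and in 3.36% of Elane-gate cells, or 24.5% and 0.548% after thinning. In the B220lo library, plasmacytoid dendritic cells (Siglech at 3 or more, 1689 cells, median depth 6010) had an Mt1 UMI in 2.19% and an Mt2 UMI in 0.237% of cells. That library held far less metallothionein RNA (Mt1 at 33.4 CPM over its kept cells, against 397 CPM in the control Kit+ library), so these shares do not measure free RNA in the Kit+ libraries, for which no such level was measured. Cells with an Mt2 UMI usually held Mt1 too: 98.9% of the Mt2-positive and 80.9% of the Mt2-negative Car1-gate cells of the control library had an Mt1 UMI, at median depths of 21419 and 10122 UMIs.

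**Figure D1:**
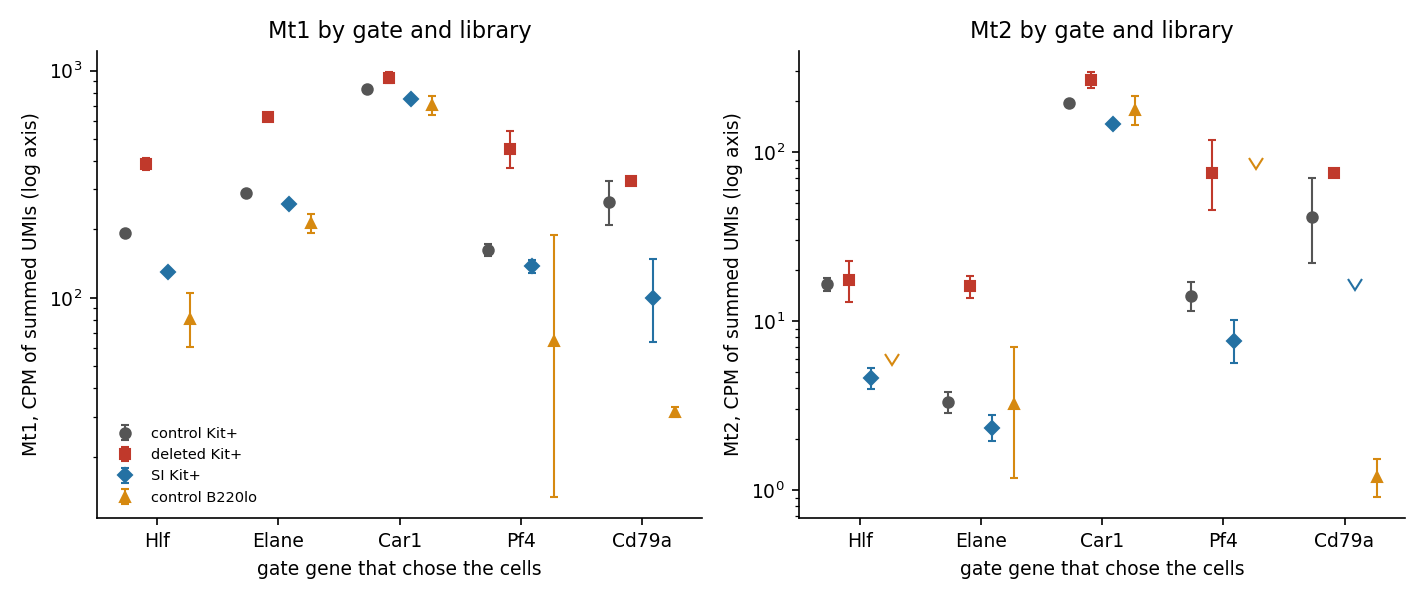
CPM of summed UMIs for Mt1 (left) and Mt2 (right) on log axes, by gate gene and library, with exact 95% Poisson intervals as bars. An open downward mark is the upper bound of a group with 0 UMIs. The Car1 gate is highest for both genes in every library, and the deleted library lies above the control Kit+ library for Mt1 in the Hlf, Elane, Pf4 and Car1 gates.

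Across control Kit+ cells outside the Cd79a gate, both members were highest in the cells with most Car1, which encodes a carbonic anhydrase of red cells. Mt2 was at 2.60 CPM in 6599 cells without a Car1 UMI, 4.33 CPM at 1 to 2 UMIs, 44.3 CPM at 3 to 9, 60.1 CPM at 10 to 29 and 219 CPM at 30 or more. Mt1 was at 209.9 CPM without a Car1 UMI, 205 CPM at 1 to 2 UMIs and 917 CPM at 30 or more. Cells without Car1 thus still held Mt1 but little Mt2, and their Mt1 differed with Elane. Among control Kit+ cells with fewer than 3 Car1 UMIs, Mt1 was at 73.3 CPM without a UMI of Elane, which encodes neutrophil elastase, and at 327 CPM at 100 or more Elane UMIs. Mt2 went the other way along the same scale, from 4.89 CPM to 1.88 CPM. These strata were chosen after the gates had been seen.

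**Figure D2:**
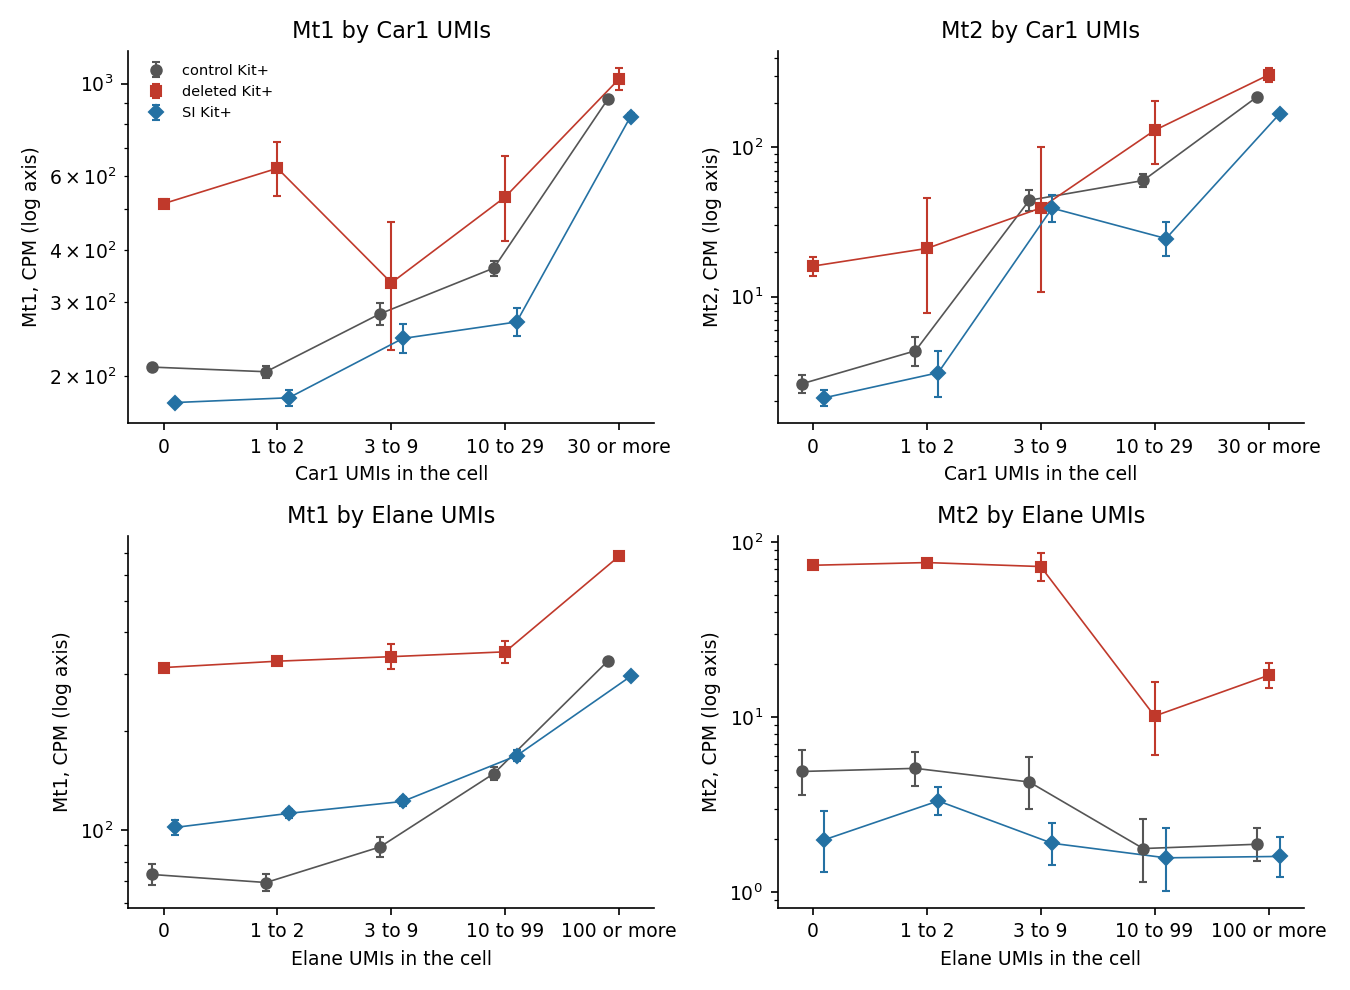
CPM of Mt1 and Mt2 on log axes against the number of Car1 UMIs (top, cells outside the Cd79a gate) and Elane UMIs (bottom, cells with fewer than 3 Car1 UMIs) in the cell, for the 3 Kit+ libraries, with exact 95% Poisson intervals. In all 3 libraries Mt2 is highest at 30 or more Car1 UMIs, with 219 CPM in the control, and the low Elane strata of the deleted library include its Cd79a-gate cells.

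In the deleted library, after removal of doublets, Mt1 was about 2-fold higher than in the control Kit+ library in the Hlf and Elane gates, and close to the control in the Car1 gate. In the Hlf gate it was at 193 CPM in the control and 389 CPM (367 to 412) in 186 deleted cells, a ratio of 2.02 (95% interval of the ratio 1.89 to 2.15). Of 8423 genes compared there (at least 100 UMIs in the library with the higher CPM), 0.629% were at least 2-fold higher in the deleted library. In the Elane gate Mt1 was at 289.6 and 626 CPM (611 to 641, 554 deleted cells), a ratio of 2.16 (2.10 to 2.22), where 1.32% of 10379 genes were at least 2-fold higher. In the Car1 gate it was at 834 and 932 CPM (880.2 to 987, 62 deleted cells), a ratio of 1.12 (1.05 to 1.19), where 0.0791% of 6320 genes were 2-fold higher. In the Pf4 gate it was at 163 and 451 CPM (372 to 542), a ratio of 2.77 (2.27 to 3.37), but from only 13 deleted cells, where 0.165% of 4251 genes were 2-fold higher. At least 2-fold lower in the deleted library were 3.86% of genes in the Hlf, 2.39% in the Elane, 5.78% in the Car1 and 19.4% in the Pf4 gate. Deleted gates held few UMIs, so most compared genes reached 100 UMIs through the control library. A gene higher in the deleted library needed 100 UMIs there, which held down the shares of higher genes and raised those of lower genes. Since the members were chosen on these ratios, nothing is read from where they stand among all genes. After thinning to 2000 UMIs, 42.9% (35.7 to 50.4) of deleted Hlf-gate cells and 63.9% (59.7 to 67.9) of deleted Elane-gate cells had an Mt1 UMI, above the control shares of 19.5% and 38.9%. With doublets kept, Mt1 stayed higher in the deleted library but under 2-fold, at 248 and 388 CPM in the Hlf gate (log2 ratio 0.64) and at 318 and 615 CPM in the Elane gate (0.95). The Hlf ratio was larger in cells of that gate alone, at 45.6 and 268 CPM (log2 ratio 2.53), and with thresholds doubled, at 105 and 309 CPM (1.55). Of Hlf-gate cells, 28.4% in the control and 36.6% in the deleted library also passed the Elane gate.

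The Mt2 ratio differed between gates, from 1.06 in the Hlf gate to 5.35 in the Pf4 gate. Both of these fell short of the 100 UMIs set for a comparison, with 53 UMIs in the deleted Hlf and 19 in the deleted Pf4 gate. The compared gates, Elane and Car1, gave 4.87 and 1.37. In the Elane gate Mt2 was at 3.30 CPM in the control and 16.0 CPM (13.8 to 18.6) in the deleted library, a ratio of 4.87 (3.96 to 5.98). With the cells scored as doublets kept, the values were 15.4 and 24.0 CPM, a log2 ratio of 0.61, so the 2-fold difference was lost. In the Pf4 gate it was at 14.1 CPM against 75.2 CPM (45.3 to 117), from 19 UMIs in 4 of 13 deleted cells. The highest cell held 14 of these 19 UMIs, a spread that the interval does not cover. In the Car1 gate it was at 195 against 268 CPM (239.9 to 298), a ratio of 1.37 (1.23 to 1.53). In the Hlf gate it was at 16.5 against 17.4 CPM (13.03 to 22.7), a ratio of 1.06 (0.779 to 1.40), an interval that holds 1. That value depended on which cells were taken: it was 2.18 against 23.2 CPM (log2 ratio 2.93) in cells of the Hlf gate alone, 8.71 against 21.9 CPM (1.24) with thresholds doubled, and 26.9 against 23.3 CPM (-0.19) with doublets kept. The Elane gate of the deleted library still held 39.0 Mt1 UMIs per Mt2 UMI, against 87.9 in the control.

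The Hlf gate is a mixture, and its makeup differed between libraries. In the control Kit+ library 638 of the 2493 Hlf-gate cells had a Car1 UMI, and these were at 328 CPM Mt1 and 50.6 CPM Mt2, against 135 and 1.95 CPM in the other cells. Only 2 of the 186 deleted Hlf-gate cells had a Car1 UMI. The summed level of 6 erythroid markers in the Hlf gate was 564 CPM in the control, 70.9 CPM in the deleted (Ermap and Rhag at 0) and 198 CPM in the SI library. Among cells without a Car1 UMI, Mt1 was at 135 CPM in the control and 390.2 CPM in the deleted library, and Mt2 at 1.95 and 16.9 CPM. The log2 ratio of Mt1 plus Mt2, with 1 CPM added to each value, was then 1.56, against 0.95 for the whole gate.

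Among Hlf-gate cells with a UMI of Procr, which encodes a surface receptor found on hematopoietic stem cells, Mt1 was at 82.4 CPM in 208 control cells and 338 CPM in 13 deleted cells. With a UMI of Flt3, which encodes a cytokine receptor of multipotent and lymphoid progenitors, it was at 107 CPM in the control and 287 CPM in the deleted library. Cycling cells were higher in the control: those with a UMI of Mki67, a proliferation gene, were at 214 CPM and those without at 142 CPM, while in the deleted library both were close, at 396 and 369 CPM. Control Mt1 therefore varied inside the gate, and the deleted library lay above the control in each of the 4 groups named in these sentences.

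**Figure D3:**
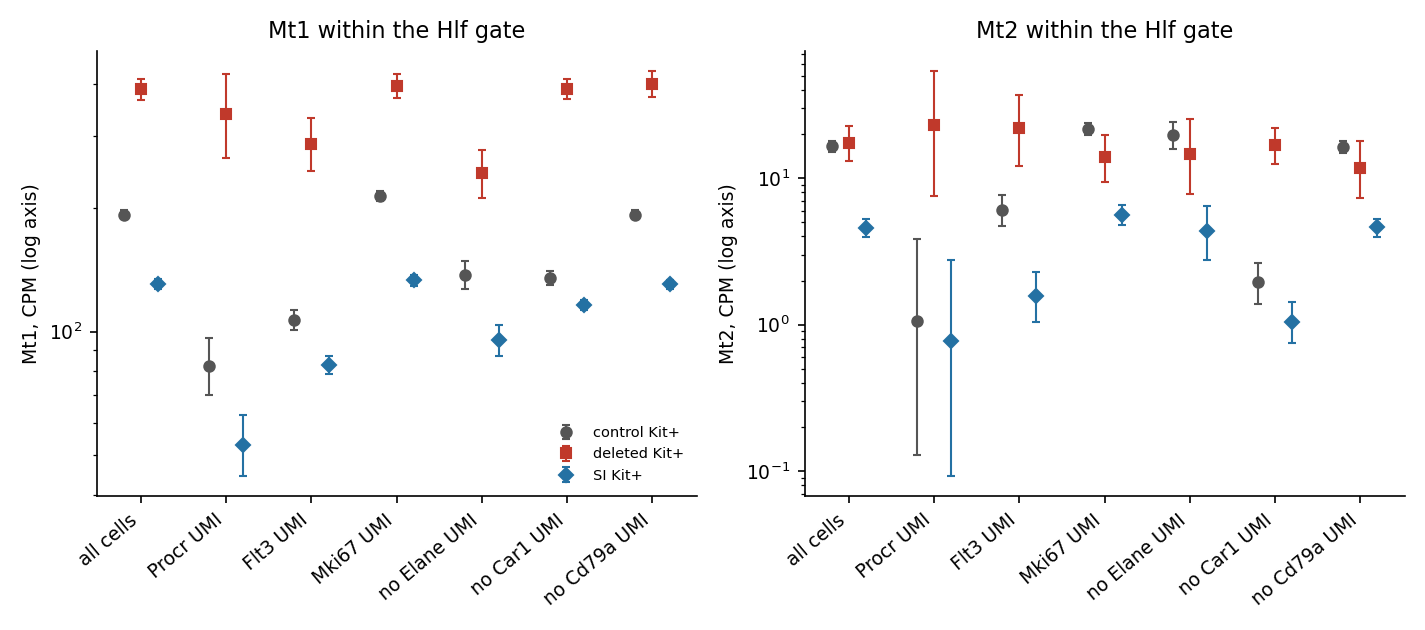
CPM of Mt1 (left) and Mt2 (right) on log axes in Hlf-gate cells and in subsets of them, for the 3 Kit+ libraries, with exact 95% Poisson intervals. For Mt1 the deleted library lies above both other libraries in every subset, while for Mt2 the control and deleted values change places with the subset.

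B-lineage transcripts were present in every gate of the deleted library. The summed level of 7 B-lineage markers was 785 CPM in its Hlf gate (control 43.0), 724 CPM in its Elane gate (control 53.3), 395 CPM in its Car1 gate (control 8.41) and 412 CPM in its Pf4 gate (control 31.7), with all 7 above 0. Cells without a Cd79a UMI gave values as high for Mt1. In the Elane gate these 313 deleted cells were at 653 CPM Mt1 and 12.5 CPM Mt2, against 289.6 and 3.31 CPM in control cells without Cd79a. In the Hlf gate 108 such deleted cells were at 401 CPM Mt1 and 11.8 CPM Mt2, against 193 and 16.4 CPM in the control.

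Mt1 was also higher in monocyte-type and basophil-type gates of the deleted library, which can share cells with the Elane gate. Monocyte-type cells (F13a1 at 3 or more, a coagulation factor gene of monocytes) were at 292 CPM Mt1 in the control Kit+, 272 in the SI and 625 in the deleted library (345 cells). Basophil-type cells (Mcpt8 or Prss34 at 3 or more, serine proteases of basophils) were at 171, 159 and 536 CPM in the same order, the last from 13 cells. Elane-gate cells held F13a1 too, reaching 505 CPM after deletion against 290 CPM for control Kit+ cells. Cells shared by these gates and the Elane gate were not counted, so their Mt1 values are not read as separate observations. Elane-gate cells with a UMI of Cebpe, a factor of late neutrophil maturation, were at 316 CPM in the control and 677 CPM in the deleted library, and those without at 261 and 582 CPM. The difference was thus seen at both stages.

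In the SI library both members were below the control Kit+ library in the 4 stem and myeloid gates taken whole. Mt1 was at 130.5 CPM (127 to 134) in 3238 Hlf-gate cells, a ratio to the control of 0.677 (0.652 to 0.703), where 1.16% of 11272 genes were at least 2-fold lower and 1.6% higher. It was at 259 CPM (255 to 264) in 3345 Elane-gate cells, a ratio of 0.895, where 0.618% of 11488 genes were 2-fold lower and 1.47% higher. It was at 749 CPM (736 to 762) in 869 Car1-gate cells, a ratio of 0.898, where 0.548% of 9849 genes were 2-fold lower and 0.69% higher. It was at 138 CPM (128 to 147) in 472 Pf4-gate cells, a ratio of 0.846, where 1.42% of 8021 genes were 2-fold lower and 1.62% higher. No Mt1 ratio of this library was past 2-fold.

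Mt2 was further down in the SI library, at 4.59 CPM in the Hlf gate (ratio 0.279, 0.235 to 0.330), 2.33 CPM in the Elane gate (0.707), 147 CPM in the Car1 gate (0.755) and 7.67 CPM in the Pf4 gate (0.545). Of these, the Hlf value was past 2-fold. The Pf4 value fell short of the 100 UMIs set for a comparison, with 99 UMIs in the control. With doublets kept, Mt2 was also past 2-fold in the Elane gate, at 15.4 and 5.96 CPM (log2 ratio -1.24), and in the Pf4 gate, at 18.8 and 8.03 CPM (-1.13). In cells of 1 gate only, the log2 ratio was -0.29 in the Hlf and -0.081 in the Elane gate, neither past 2-fold. It too differed with Car1: among Hlf-gate cells without a Car1 UMI, Mt2 was at 1.95 CPM in the control and 1.05 CPM in the SI library, and Mt1 at 135 and 116 CPM. In cells that passed the Hlf gate and no other, the order of Mt1 turned, with 45.6 CPM in the control, 79.1 in the SI and 268 in the deleted library. The same happened in cells of the Pf4 gate alone, at 106 CPM in the control and 119 CPM in the SI library. Basophil and mast markers summed to 261 CPM in the control and 1018 CPM in the SI Hlf gate, and to 79.3 and 1255 CPM in the Pf4 gate. The part of these cells in the results was not tested. Mast-type cells (Cpa3 at 10 or more without Mcpt8 or Prss34) were at 130.1 CPM Mt1 in 251 control and 162 CPM in 2730 SI cells, with Mt2 at 2.94 and 2.78 CPM.

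B-lineage cells of the deleted library held both members and also Mt3, a metallothionein best known from neurons, at levels far above those of control B220lo cells. In 12591 deleted Cd79a-gate cells Mt1 was at 327 CPM (324 to 331), against 31.4 CPM (29.9 to 32.9) in 10840 B220lo cells, a ratio of 10.4 (9.93 to 10.95). Mt2 was at 75.1 CPM against 1.19 CPM, a ratio of 63.3 (49.5 to 82.3), which was 14.9 (8.88 to 27.3) in cells with a Kit UMI and 9.85 (5.87 to 18.04) with Kit and Dntt UMIs. Mt3 was at 25.4 CPM against 0.501 CPM, from 2491 and 27 UMIs, and B220lo cells with a Kit UMI held 2 Mt3 UMIs. Of 13058 genes compared in this gate 13.8% were at least 2-fold higher and 12.8% lower in the deleted library, so calls were common here. The libraries differ in the sort, Kit+ against B220lo, as well as in genotype and sex, and no control Kit+ B-lineage group of size was at hand: the Cd79a gate held 47 control and 28 SI cells, both rich in neutrophil markers. The control cells were at 263 CPM Mt1 (209.7 to 326) and 41.2 CPM Mt2 (21.95 to 70.5). Of their 83 Mt1 UMIs, 43 were in 3 cells that also passed the Car1 gate, and all 13 Mt2 UMIs were in 2 of these cells. These control values are therefore no B-lineage reference. The SI cells were at 99.4 CPM Mt1 (63.7 to 148) and had 0 Mt2 UMIs, where 3 UMIs would be 12.4 CPM.

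The cells also differed in stage and depth. Median depth was 6458 UMIs in the deleted and 3077 in the B220lo Cd79a gate. The share of cells with an Mt1 UMI was 52.0% (51.1 to 52.8) against 4.52% (4.14 to 4.93), and 30.2% (29.4 to 31.0) against 1.93% (1.66 to 2.22) after thinning to 2000 UMIs, which left out 306 and 1291 cells. For Mt2 the thinned shares were 10.3% and 0.0524%, and for Mt3 4.66% and 0.0943%. Within B220lo cells Mt1 varied with stage genes. It was at 54.8 CPM in cells with a UMI of Vpreb1, a surrogate light chain gene of pro-B and pre-B cells, and at 13.2 CPM in those without. For Rag1, a recombinase gene, the order was turned, at 14.3 CPM with and 38.6 CPM without a UMI. The 255 B220lo cells with a Kit UMI were at 73.1 CPM Mt1, against 327 CPM in deleted cells with one, a ratio of 4.48 (3.90 to 5.16). Cells also past the Elane gate were not removed. In the whole Cd79a gate these were 29 B220lo cells at 215 CPM Mt1 and 92 deleted cells at 559 CPM. Their number among cells with a Kit UMI was not counted, and their part in the ratio was not tested. With UMIs of both Kit and Dntt, which encodes the polymerase that adds bases at antigen receptor joints, 174 B220lo cells were at 49.5 CPM and 10361 deleted cells at 324 CPM, a ratio of 6.55 (5.35 to 8.12). Both ratios were below the 10.4 of the whole gate, while in cells without an Mki67 UMI the ratio was above it, at 20.8 (18.6 to 23.3), and that of Mt2 was 160.1 (89.3 to 321). These subsets were chosen after the ratio of the whole gate had been seen.

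Mt1 was higher in cycling B220lo cells, at 45.9 CPM with and 13.6 CPM without an Mki67 UMI, and less in deleted cells, at 352 and 283 CPM. Deleted cells spanned a wide range. The median cell held 1 Mt1 UMI, the 90th percentile 8 and the highest 110, and the top 10% of cells held 58.6% of the Mt1 UMIs. Such a spread was not particular to them: that share was 100% in the B220lo Cd79a gate. It was 61.3%, 57.5%, 29.7% and 28.7% in the control Kit+ Hlf, Pf4, Elane and Car1 gates. Cells without a heavy-chain contig were at 341 CPM Mt1 and 78.3 CPM Mt2. Those whose heavy-chain junction was found in 1 to 19 cells were at 389.7 and 94.4 CPM, and those whose junction was shared by 20 or more cells at 225 and 48.7 CPM. Cells of the large shared junctions thus had the lowest metallothionein level of the 3 groups. Deleted B-lineage cells held 4.35 Mt1 UMIs for each Mt2 UMI, against 26.4 in the B220lo Cd79a gate and 4.28 in control erythroid precursors. The control Kit+ Cd79a gate gave 6.38, but all 13 of its Mt2 UMIs were in 2 cells that also passed the Car1 gate.

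**Figure D4:**
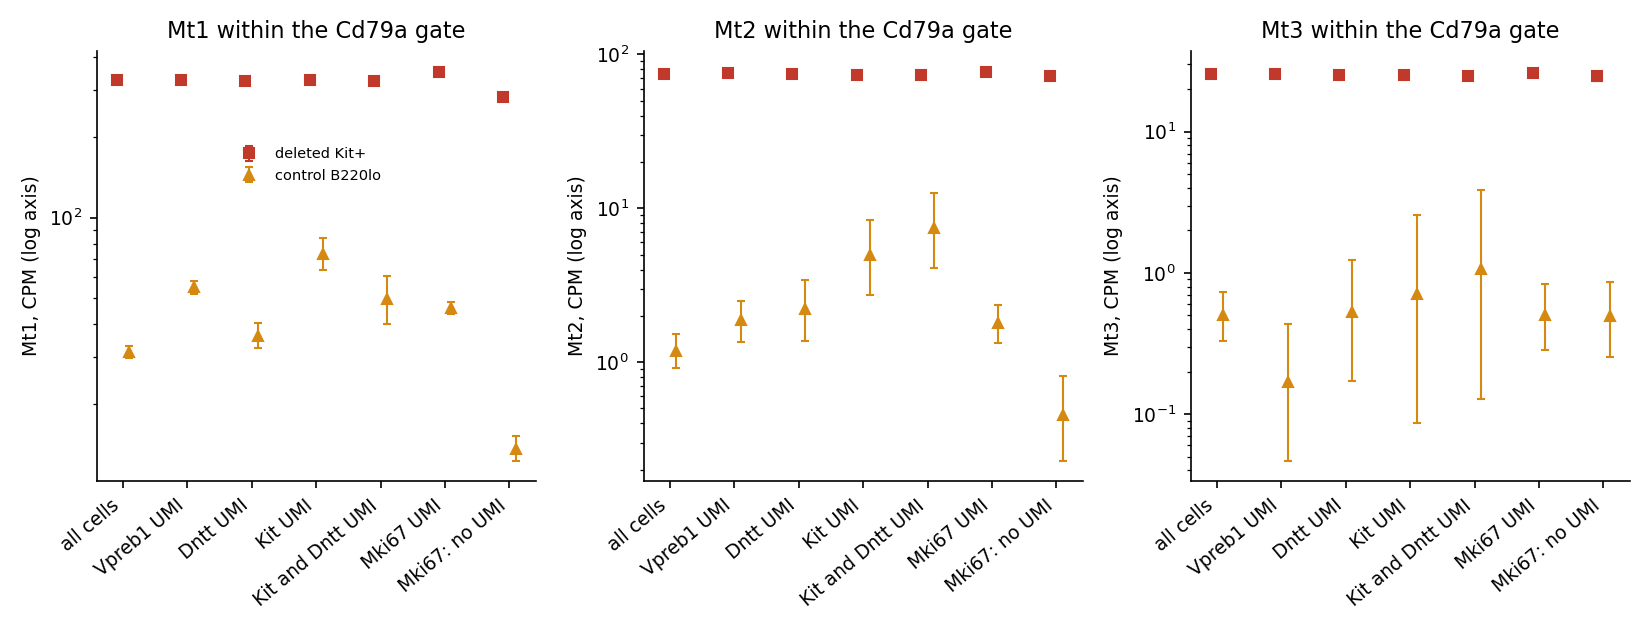
CPM of Mt1, Mt2 and Mt3 on log axes in Cd79a-gate cells of the deleted Kit+ and control B220lo libraries, for all cells and for subsets by UMIs of stage and proliferation genes, with exact 95% Poisson intervals. Deleted values lie between 283 and 352 CPM for Mt1 in every subset, above all B220lo values, which lie between 13.6 and 73.1 CPM.

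Most Mt3 UMIs of the 4 libraries were in these cells. The whole control Kit+ library held 8 Mt3 UMIs and the SI library 35, against 2502 in the deleted library, of which 2491 were in the Cd79a gate. The deleted Hlf and Elane gates, which partly overlap the Cd79a gate, held 4 and 14 Mt3 UMIs, against 4 and 3 in the larger control gates. These were 1.31 against 0.137 CPM in the Hlf gate, a ratio of 9.61 (1.79 to 51.6), and 1.28 against 0.048 CPM in the Elane gate, a ratio of 26.6 (7.42 to 144). The deleted Hlf and Elane gates also held B-lineage markers, at 785 and 724 CPM. The deleted Cd79a gate held these markers at 11507 CPM and Mt3 at 25.4 CPM. The part of B-lineage RNA in the Mt3 values of the Hlf and Elane gates was not tested. Mt4, a gene of stratified epithelia, had 0 UMIs in all 4 libraries.

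Compared genes next to Mt1 and Mt2 were within 2-fold in stem and myeloid cells. None of the compared genes within 500 kb of Mt1, other than the members, was past 2-fold in any of the 4 stem and myeloid gates, for the deleted or the SI library, with 5 to 11 genes compared per gate. Genes under 100 UMIs, Mt3 among them, were not compared there. Among all compared genes of the deleted library 0.0791% to 1.32% were higher by gate. The share lower was 2.39% to 5.78% in the Hlf, Elane and Car1 gates and 19.4% in the Pf4 gate. In the SI library 0.69% to 1.62% were higher and 0.548% to 1.42% lower. A count of 0 among so few genes is therefore not a result about the neighbours. In the Elane gate of the deleted library their log2 ratios lay between -0.60 (Cpne2) and 0.36 (Ogfod1), against 1.11 for Mt1 and 1.99 for Mt2. In the Cd79a comparison, where 26.5% of genes were past 2-fold either way, 2 of 17 were higher and 5 lower. The higher ones were Mt3 at a log2 ratio of 4.14 and Gnao1, a G protein subunit gene, at 1.04. The lower ones were Slc12a3, a sodium chloride cotransporter gene, at -6.11, Pllp at -2.50, Herpud1, a gene of the endoplasmic reticulum stress response, at -2.21, 9330175E14Rik at -1.54 and Gm15890 at -1.49.

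**Figure D5:**
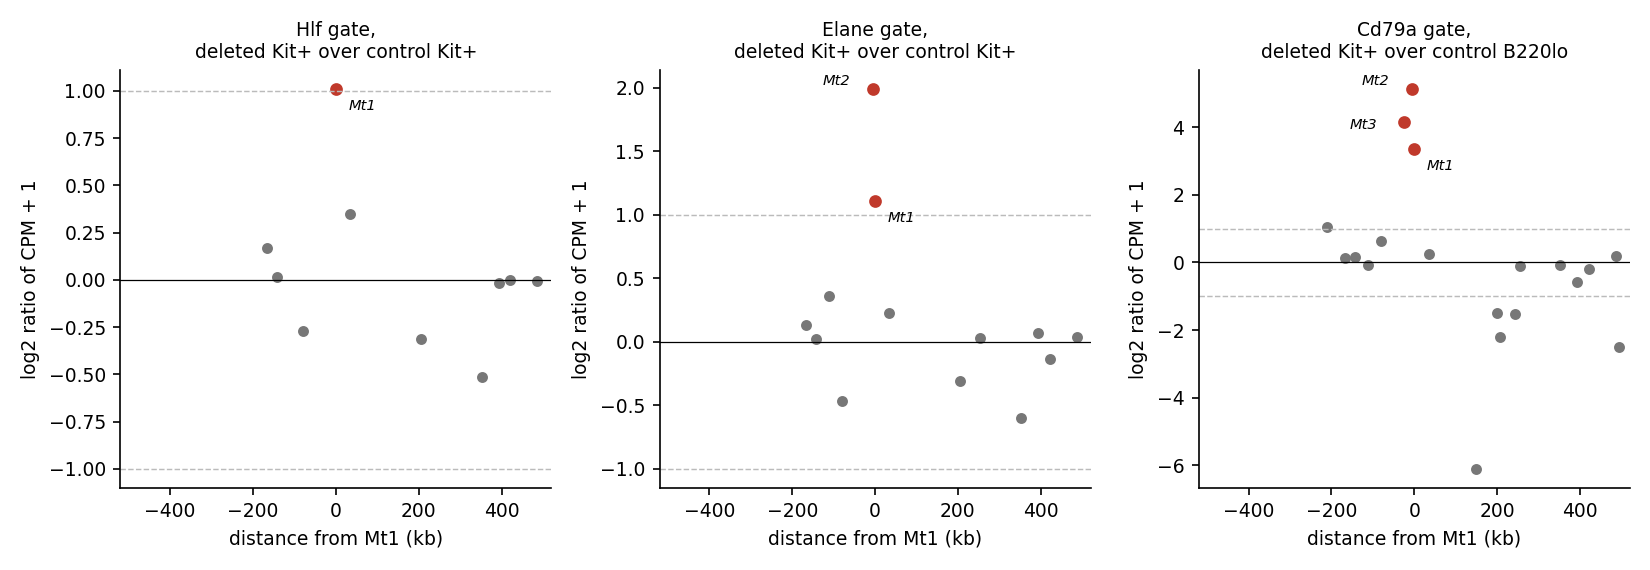
Log2 ratio of CPM + 1 against the distance from Mt1 in kb for the compared genes within 500 kb, in the Hlf, Elane and Cd79a gates. Red points are metallothionein genes and dashed lines mark 2-fold. In the Elane gate Mt1 and Mt2, which were chosen on these ratios, are at 1.11 and 1.99, and the other genes shown are within 2-fold, as were most of the 10379 genes compared.

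Genes of metal handling other than Mt1 and Mt2 gave few 2-fold calls in stem and myeloid gates. Among all compared genes of the deleted library 0.0791% to 1.32% were higher and 2.39% to 19.4% lower by gate. A higher call also needed 100 UMIs in the small deleted gates, so nothing is read from the low counts. Mtf1, the activator itself, was at 24.1 CPM in control and 26.6 CPM in deleted Hlf-gate cells, and at 30.7 and 37.4 CPM in the Elane gate. Slc30a1, the zinc exporter of the cell surface and an MTF1 target, was at 3.92 and 7.22 CPM in the Hlf gate, from 22 deleted UMIs, and at 3.84 and 5.56 CPM in the Elane gate. Of 10 metal response genes without Mt1 and Mt2, 5 to 7 were compared per gate and 0 were 2-fold higher in the deleted library. 1 was lower, Ndrg1 in the Elane gate. List medians lay between -0.35 and 0.02, beside medians of all compared genes between -0.42 and 0.00 (log2). Zinc exporters (2 to 5 of 10 compared) had 1 lower call, Slc30a6 in the Pf4 gate, zinc importers (2 to 9 of 14) had 0, and copper handling genes (1 to 7 of 8) had 0. In the SI library these 4 lists had 0 calls in either direction, beside 0.69% to 1.62% of all compared genes higher and 0.548% to 1.42% lower.

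Lists of other known inducers gave more lower than higher calls in the deleted library, as did all compared genes (0.629% higher and 3.86% lower in the Hlf gate), so nothing about these lists is read from the lean. The glucocorticoid list (6 to 11 of 13 genes compared) had 0 higher and 7 lower calls over the 4 gates. Tsc22d3, a glucocorticoid-induced regulator also named GILZ, was at 63.4 CPM in control and 27.2 CPM in deleted Hlf-gate cells, and at 34.7 and 15.7 CPM in the Elane gate. Zbtb16, a transcription factor gene, was at 27.9 and 12.7 CPM in the Elane gate and at 22.0 and 7.92 CPM in the Pf4 gate. In the deleted Pf4 gate 3 UMIs would be 11.9 CPM, so that value rests on fewer than 3 UMIs. The NRF2 list (5 to 11 of 14) had 2 lower calls, both Hmox1, the heme-degrading enzyme. It was at 6.83 and 0.984 CPM in the Hlf gate and 3.25 and 0.911 CPM in the Elane gate. In the deleted Hlf gate 3 UMIs are 0.984 CPM, so that value rests on very few UMIs. The STAT3 and acute phase list (3 to 8 of 10) had 0 higher and 2 lower calls, and the hypoxia list (4 to 10 of 12) had 0 higher and 1 lower, again Ndrg1, which both lists hold.

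Immediate early and handling stress genes (4 to 9 of 12 compared) had 2 higher and 5 lower calls over the 4 gates of the deleted library. Of all compared genes there, 0.0791% to 1.32% were higher and 2.39% to 19.4% lower by gate, and nothing about the list is read from these counts. Jun, an immediate early factor, was lower in 3 gates, at 44.5 CPM in control and 17.4 CPM in deleted Hlf-gate cells, 26.5 and 11.9 CPM in the Elane gate, and 28.7 and 12.6 CPM in the Car1 gate. The higher calls were the heat-shock genes Hspa1a and Hspa1b in the Elane gate, and both genes were higher in all 4 gates of the SI library. Hspa1a was at 2.12 CPM in control and 18.3 CPM in SI Hlf-gate cells and at 3.84 and 25.3 CPM in the Elane gate, and Hspa1b at 3.003 and 27.9 CPM and at 5.50 and 33.6 CPM. Klf9, a glucocorticoid-responsive factor, was lower in the SI library, at 25.2 and 11.9 CPM in the Hlf gate and 38.0 and 14.7 CPM in the Car1 gate. In the SI library 0.69% to 1.62% of all compared genes were higher and 0.548% to 1.42% lower by gate. Over its 4 gates the glucocorticoid list (8 to 12 of 13 compared) had 2 lower calls. The NRF2 list (9 to 12 of 14) had 0. The STAT3 list (5 to 8 of 10) and the hypoxia list (9 to 11 of 12) had 1 lower call each. The stress list (7 to 11 of 12) had 10 higher calls: Hspa1a and Hspa1b in all 4 gates, Fosb in the Hlf gate and Jun in the Pf4 gate.

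The genes most like each member were found by Pearson's r of log2(CPM + 1) over 15 gate and library units of at least 50 cells, among 11519 genes. The units share libraries and some cells, and no test was made. For Mt1 they were Ubl4a (r = 0.95), Gnl1, Mrps15, Rpl10-ps3 and Crls1 (r = 0.94). Ubl4a was at 99.7 CPM in the control Car1 gate, 74.1 CPM in the control Elane gate, 85.4 CPM in the deleted Elane gate and 44.9 CPM in the B220lo Cd79a gate, a far narrower range than that of Mt1. For Mt2 they were B3glct, Rbmxl1, Minpp1 and Prdx2 (r between 0.94 and 0.95) and Dap3 (r = 0.93). Prdx2, a peroxiredoxin abundant in red cells, was at 827 CPM in the control Car1 gate and 299.9 CPM in the control Elane gate. Mt1 and Mt2 had r = 0.81 with each other, which ranked Mt2 at 245 for Mt1 and Mt1 at 310 for Mt2.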

How the data were processed

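The deposited matrices held raw UMI counts per gene and cell barcode. Per the file headers, Cell Ranger 7.1.0 wrote them, and the submitters' processing notes name mm10. Deposited contig tables gave UMI counts per contig and were used for which cells had a heavy chain and how many cells shared its junction sequence. The members and lists were chosen with earlier results of these data known. A barcode was kept with 1000 UMIs, 500 genes and a mitochondrial share of no more than 10%. Scrublet in scanpy 1.11.5 scored doublets. Its own threshold marked 0, 1 and 0 barcodes of the deleted, SI and B220lo libraries and so had not worked there, and a score of 0.25 was applied to all, removing 580 to 1168 barcodes per library. UMIs were summed per gate and library and given as CPM. Log2 ratios added 1 CPM to both values, so that ratios of low genes are understated. A gene was compared with at least 100 UMIs in the library with the higher CPM and called at 2-fold, without a test, since each group had 1 library. The ratio step was tested on simulated data. Named genes were the members, Mtf1 and Slc30a1, list genes past 2-fold the same way in at least 2 of the 4 stem and myeloid gates, the 5 genes most like each member, and genes within 500 kb. Others named beside a count of 5 or fewer, were picked after their values were seen. Free RNA was not corrected for. Alternatives were the cell filter, doublets, gate overlap and thresholds, pseudocount, denominator, pooling, thinning and centring.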

Additional observations from a re-analysis of the deposited data

How the results depend on the processing

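No paired analysis was possible because each group has 1 library. Values are log2 ratios of Mt1 plus Mt2. In the deleted library every alternative run kept the direction in all gates. The Hlf ratio (0.95) was 0.58 with all barcodes and with doublets kept, 2.58 in cells of 1 gate only, 1.53 with thresholds doubled, 1.29 as a mean over cells, 1.23 thinned to 2000 UMIs and 1.56 without a Car1 UMI. The Elane ratio (1.13) was 0.93 with all barcodes and with doublets, and 1.18 in cells of 1 gate. The Car1 ratio (0.22) was 0.13 as a mean over cells, 0.12 thinned and 0.37 centred on the median gene. The Pf4 ratio (1.57) was 1.25 with all barcodes and with doublets, 2.74 in cells of 1 gate, 1.97 as a mean over cells and 1.99 centred. In the SI library the direction turned in cells of 1 gate only, to 0.74 in the Hlf gate (from -0.63) and 0.13 in the Pf4 gate (from -0.28), and for Mt1 alone to 0.78 and 0.16. Other SI values were -0.86 with all barcodes and with doublets, -0.42 with thresholds doubled, -0.47 as a mean over cells, -0.48 thinned and -0.23 without a Car1 UMI in the Hlf gate, and -0.46 with all barcodes and with doublets, -0.086 as a mean over cells and -0.087 thinned in the Pf4 gate. The SI Elane ratio (-0.16) was -0.31 with all barcodes and with doublets, -0.19 without ribosomal, mitochondrial and receptor genes, -0.20 as a mean over cells and -0.20 centred. The SI Car1 ratio (-0.20) was -0.17 with all barcodes and with doublets, -0.27 as a mean over cells and -0.31 thinned. The Cd79a ratio (3.59) was 3.67 with all barcodes, with doublets and in cells of 1 gate, 3.28 with 10 CPM added, 4.65 as a mean over cells, 4.67 thinned, 2.35 in cells with a Kit UMI and 2.78 with Kit and Dntt UMIs. The restrictions to cells without Car1 and with Kit or Dntt were chosen after seeing the data. Restricting to 1 gate leaves out cells that also pass the Car1 or Elane gate, and the cause of the reversals was not tested. Of 162 alternatives for a single gene, 158 kept the direction. Mt2 alone in the deleted Hlf gate did not keep it throughout, with log2 ratios between -0.19 and 2.93. A kept direction does not mean a steady size: Mt1 in the same gate lay between 0.64 and 2.53. The deleted Pf4 gate rests on 13 cells.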

Other observations

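In the Cd79a comparison of deleted with B220lo cells, 26.5% of all compared genes were past 2-fold either way. The lists held such calls too, and nothing about the lists is read from their number. Of the 9 metal response genes compared, Mt3 and Csrp1 were higher and Gclc was lower. Of 10 zinc importers compared 1 was higher, Slc39a8, and of 6 exporters 2 were lower, Slc30a4 and Slc30a5. Of 7 copper handling genes 1 was higher, Ccs, the copper chaperone of superoxide dismutase. The NRF2 list had 3 higher calls of 12 (Nqo1, Txnrd1 and Gsr, all antioxidant enzymes) and 1 lower, Gclc. The STAT3 and acute phase list had 0 higher and 5 lower calls of 9. Mtf1 was at 19.8 CPM in deleted and 22.8 CPM in B220lo cells, and Slc30a1 at 5.12 and 4.42 CPM. These libraries differ in sort, sex and genotype together, which cannot be told apart here.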
